A study of Homo sapiens with 6 samples.

Results

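FOSL1, FOSL2, MAFK and ZFP36L1 are 4 human genes, grouped here as early-response regulators, whose RNA gave eCLIP peaks for a quadruplex-directed enzyme. Peaks were taken where their midpoint lay in 1 of these genes on the same strand, which gave 14 of the 3930 peaks in both deposited lists. All 14 came from the G4PID list, 14 of its 270 peaks, and 0 from the 3660 peaks of the SF3B4 list. The genes were picked because they had G4PID peaks, so the presence of these peaks and their fold values are given as a description with no test. Over 19940 protein-coding genes 0.496% had a G4PID peak, and nothing is read from 4 of 4 beside that share. The peak lists hold no time course and no expression values, so neither the early response of these genes nor the identity of the cells could be checked here.

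The study used eCLIP in HEK293T cells, an established human line from embryonic kidney. In eCLIP, RNA crosslinked to a protein is precipitated with it and sequenced, and its enrichment is measured over an input library. G4PID joins a biotin ligase to a part that seeks out G-quadruplexes, the stacked folds of guanine-rich nucleic acid, and was recovered with an antibody to the HA tag (2 libraries). SF3B4, a subunit of the splicing factor SF3b, was recovered with an antibody to the protein itself (2 libraries), and the input had no antibody (2 libraries). Per the labels' protocols, cells received a plasmid for G4PID or for miniTurboID, the ligase without targeting, and were given 500 µM biotin for 30 min. The labels carry this text on every sample, so they do not settle which plasmid, if any, the SF3B4 and input cells received. A library of the untargeted ligase was not analysed here. With 1 list per antibody no value per library was at hand, so replicate error is not known, nor is the depth. Coordinates are on hg38 (GRCh38).

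FOSL1 and FOSL2 encode Fos-family proteins with a basic leucine zipper, which pair with Jun proteins to form the transcription factor AP-1. MAFK encodes a small Maf protein, a basic leucine zipper factor without an activation domain that pairs with partners such as NFE2L2 and BACH1 on antioxidant response elements. ZFP36L1 encodes a zinc finger protein of the tristetraprolin family, which binds AU-rich elements in the 3'UTRs of short-lived mRNAs and recruits the CCR4-NOT deadenylase.

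Of the 13 peaks whose sequence could be read, 6 held more G than C, in MAFK and FOSL2, and 5 more C than G, in FOSL1 and ZFP36L1. In 1 MAFK peak and 1 ZFP36L1 peak G and C were equal. The following stretches, rebuilt from GENCODE release 29 transcripts and written 5′ to 3′ on the RNA strand with T for U, show both kinds. In the first 3, which match the quadruplex motif searched (GGG or longer, 4 times, with loops of 1 to 7 nt), capitals mark 3 G of each run.
FOSL2 5'UTR, chr2:28393014-28393034, plus strand: GGGaaGGGgtgcGGGtctGGG
MAFK first intron, chr7:1537806-1537826, plus strand: GGGtgtGGGgaGGGtcctGGG
MAFK 3'UTR, chr7:1540407-1540428, plus strand: GGGcggcGGGcaggcGGGtGGG
In the next 3, the most C-rich 25 nt of their windows by the G4Hunter score, capitals mark runs of 2 or more C.
FOSL1 coding sequence, chr11:65893009-65893033, minus strand: aCCCtCCCtaactCCtttcaCCCCC
FOSL1 3'UTR, chr11:65892824-65892848, minus strand: CCaatgtctCCtCCCCttCCCCCac
ZFP36L1 3'UTR, chr14:68789360-68789384, minus strand: CCCtCCCtctCCCCCtcataaCCCC
The last is the stretch of the ZFP36L1 3'UTR whose opposite strand matches the motif, with capitals for the complement of the G runs.
ZFP36L1 3'UTR, chr14:68789445-68789463, minus strand: CCCtaCCCatCCCattCCC

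FOSL1 (ENSG00000175592.8, chromosome 11, 65892049 to 65900573, minus strand) had 3 G4PID peaks. The value given for each peak is the authors' log2 fold over input, which is how the column was read, since it has no header. The peak in the first intron (65899731 to 65899766) had a log2 fold of 5.22, and its midpoint lay 493 nt from the 5' splice site of exon 1. The peak in the coding sequence of the last exon (65893006 to 65893075) had a log2 fold of 5.61 and covered codons 209 to 232 of 271. The third peak (65892775 to 65892877) had a log2 fold of 6.86, lay in the 3'UTR and began 8 nt after the stop codon. It ranked 8 of 270 by fold, and by its highest peak FOSL1 ranked 6 among the 127 genes of the list, between DHRS2 (7.10) and GCNT1 (6.61). The 2 peaks of the last exon thus stood on either side of the stop codon, with 117 nt of coding sequence between the upstream one and that codon. In 1 other annotated transcript, which has a shorter reading frame, the coding peak falls in the 3'UTR.

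ZFP36L1 (ENSG00000185650.9, chromosome 14, 68787660 to 68796253, minus strand) had 4 G4PID peaks, with the widest range of fold of the 4 genes. The peak in the 5'UTR (68792973 to 68793007) had a log2 fold of 4.39 and ended 34 nt before the start codon. The coding peak (68789690 to 68789769) had a log2 fold of 3.50 and covered codons 261 to 287 of 338. In another transcript, with a shorter reading frame, this position is 3'UTR, and the position of the 5'UTR peak is coding in 1 incomplete transcript and intronic in 2 others. The first 3'UTR peak (68789345 to 68789500) was the widest of the 14 at 156 nt, had a log2 fold of 6.39 and began 32 nt after the stop codon. In 1 other coding transcript that position is intronic, because this transcript splices from just past the stop codon to a separate 3'UTR exon. The second 3'UTR peak (68788007 to 68788056) lay 1476 nt after the stop codon and had a log2 fold of 3.14, rank 269 of 270 and so the second lowest of the list. By its highest peak ZFP36L1 ranked 10 of 127 genes, level with PTPRN2 and just above TCF25 (6.35), while its median over 4 peaks was 3.94. A gene's highest peak therefore did not stand for its other peaks here. As in FOSL1, a coding peak and a stronger 3'UTR peak stood on either side of the stop codon, 154 nt of coding sequence before it and 32 nt after it.

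MAFK (ENSG00000198517.9, chromosome 7, 1530714 to 1543043, plus strand) had 6 G4PID peaks, a number reached by 8 of 127 genes, and their folds lay close together. The upstream peak (1537822 to 1537846) had a log2 fold of 4.30 and fell in the first intron of the principal transcript, 1315 nt before the next 3' splice site. In another transcript, annotated as a target of nonsense-mediated decay, the same position is 5'UTR exon. The other 5 peaks lay in the 3'UTR, beginning 41, 697, 1102, 1206 and 1458 nt after the stop codon of a 3'UTR of 2668 nt. Their log2 folds were 5.46, 4.92, 5.17, 4.92 and 4.30 in that order, so the peak nearest the stop codon was the highest of the gene. The last 3 lie in an intron of that other transcript. By its highest peak MAFK was 1 of 6 genes at rank 39, with ITGA3 and MIR222HG among them. The first and last MAFK peaks had the same pair of fold and p, a pair that 6 peaks of the list shared.

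FOSL2 (ENSG00000075426.11, chromosome 2, 28392448 to 28417312, plus strand) had 1 G4PID peak. It lay in exon 1 of the principal transcript (28393019 to 28393086), in the 5'UTR, and ended 634 nt before the start codon. Its log2 fold of 4.80 placed FOSL2 at rank 88 among 127 genes, level with CRIM1 and GABBR1. In 2 other transcripts, which start upstream and skip this exon, the position is intronic. The antisense gene FLJ31356 runs across it on the other strand. No peak of either list lay on the opposite strand within FOSL2 or the other 3 genes.

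**Figure D1:**
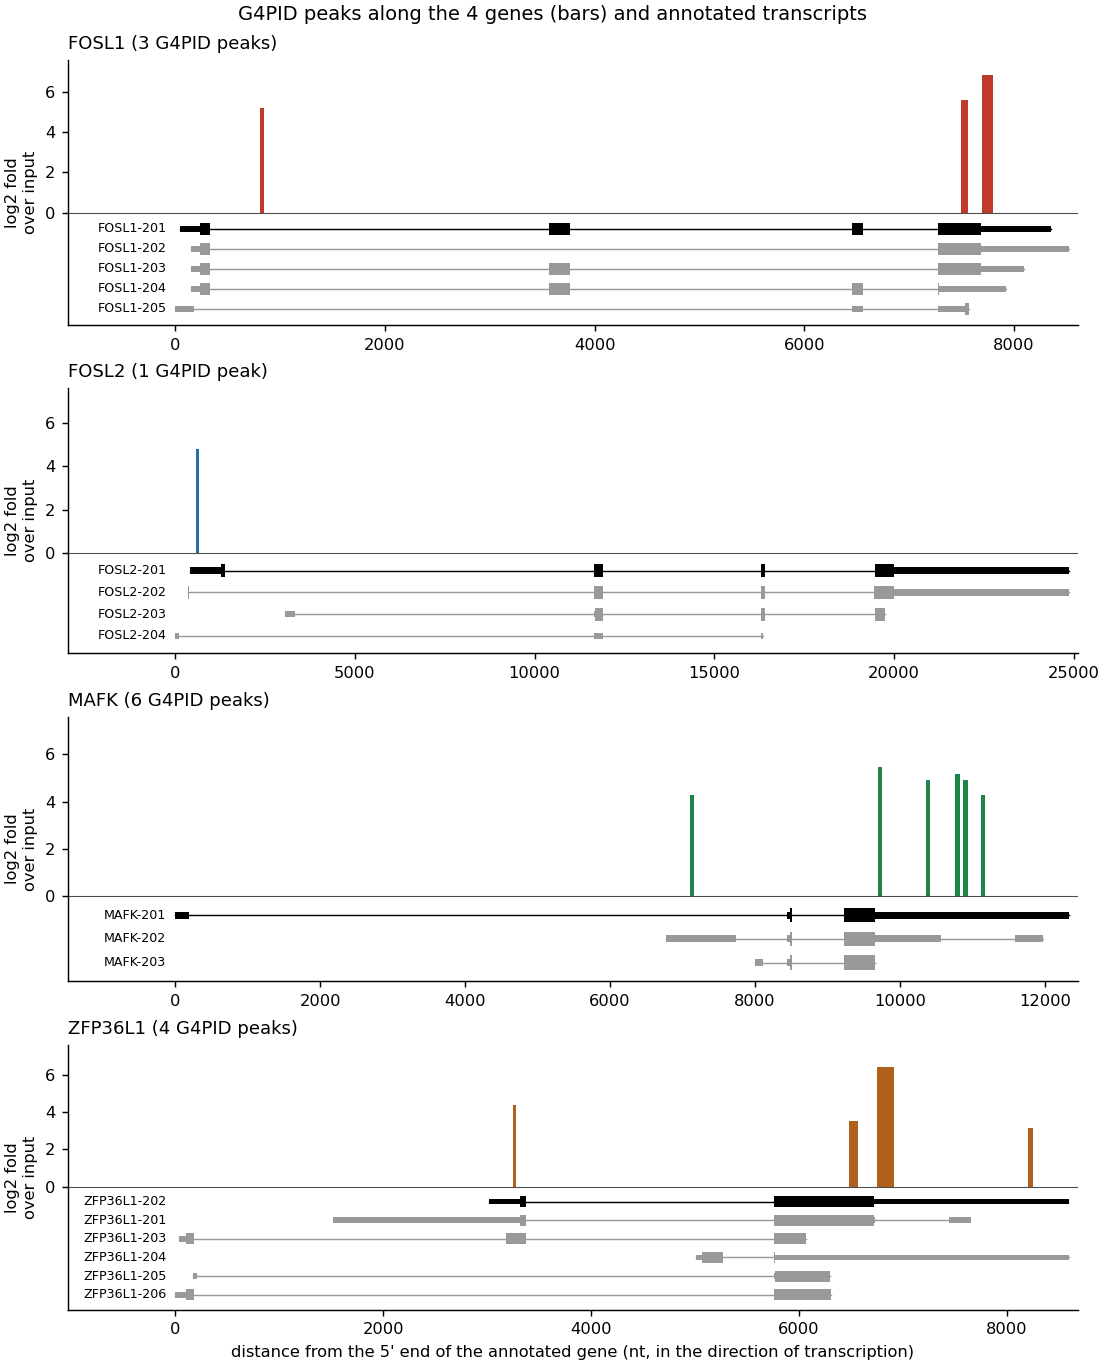
G4PID peaks along FOSL1, FOSL2, MAFK and ZFP36L1, as bars whose height is the authors' log2 fold over input (y axis), against distance from the gene's 5' end in nt (x axis). Below each axis stand the annotated transcripts, the principal one in black and the others in grey, with coding sequence drawn thick. In FOSL1, MAFK and ZFP36L1 the tallest bar (6.86, 5.46 and 6.39) stands just after the end of the coding sequence.

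**Figure D2:**
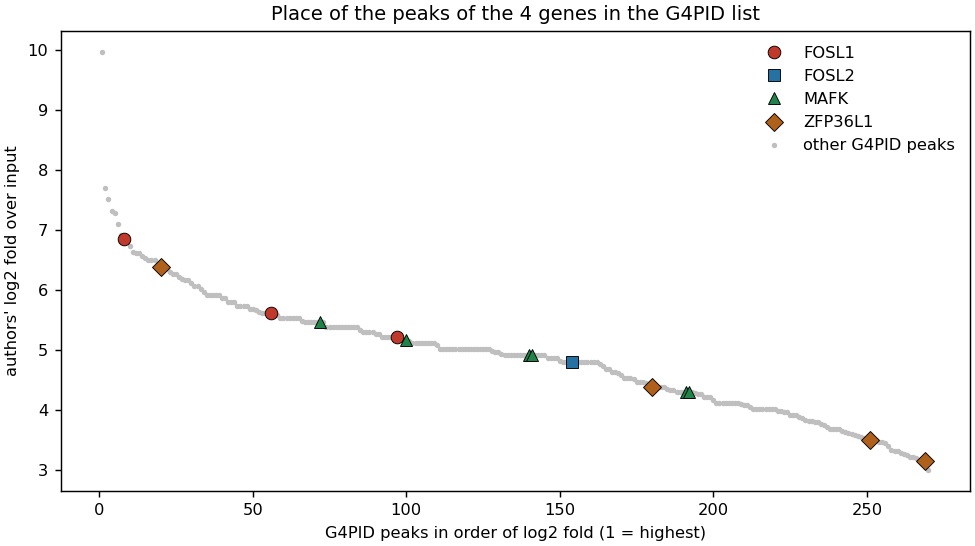
The 270 G4PID peaks in order of the authors' log2 fold (y axis), with the 14 peaks of the 4 genes as coloured symbols and all others in grey. The 14 range from 6.86 in FOSL1 to 3.14 in ZFP36L1 and run through the whole list rather than its top alone.

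The 14 peaks were spread over the fold range of the list. A log2 fold of at least 5 was reached by 6 of the 14 (42.9%), against 121 of the other 256 (47.3%). The 6 lay in FOSL1, MAFK and ZFP36L1, and 0.256% of protein-coding genes had a peak at that fold, from which nothing is read for genes chosen by their peaks. Their median log2 fold was 4.92, against 4.92 for the other 256 peaks. The median width was 59.5 nt, against 61 nt for the others. Among the 14, 10 shared their pair of fold and p with at least 1 other peak of the list (71.4%), against 61.3% of the others. For the other peaks in protein-coding genes that share was 71.8%. The highest peaks of FOSL1 and ZFP36L1 both had an authors' −log10 p of 15.7, a value that 29 of the 270 peaks shared, so they could not be ordered by it.

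The peaks of the 4 genes lay mostly in 3'UTRs. The 3'UTR held 8 of the 14 (57.1%), coding sequence 2, 5'UTR 2 and intron 2. Of the other peaks in protein-coding genes, 35 of 177 lay in a 3'UTR (19.8%, 95% Wilson interval 14.6 to 26.3%, counting error only). MAFK alone gave 5 of the 8. The 3'UTR made up 39.9% of the spliced principal transcript of FOSL1, 58.7% of that of ZFP36L1, 79.2% of that of MAFK and 72.5% of that of FOSL2, in which the only peak was in the 5'UTR. Of the 12 exonic peaks of the 4 genes, 10 lay in the last exon of the principal transcript, against 59 of 108 of the other exonic peaks (54.6%). Members share genes and were chosen from the list, so no test was made of these shares.

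In each of the 3 genes with 3'UTR peaks, the peak with the highest fold began 0 to 50 nt after the stop codon, at 8 nt in FOSL1, 32 nt in ZFP36L1 and 41 nt in MAFK. These were 3 of the 8 3'UTR peaks of the 4 genes (37.5%, 95% Wilson interval 13.7 to 69.4%). Intervals here hold counting error only, count peaks of the same gene as separate and make no test of members chosen from this list. Of the other G4PID peaks in the 3'UTR of a principal transcript, 3 of 36 began in that stretch (8.33%, 95% Wilson interval 2.87 to 21.8%), in S100A16, KRT81 and FLNC, which are named here after their values were seen. The peak there was also the highest of its gene in S100A16, where it was the only one. In KRT81 it was level with a coding peak at 5.92, and in FLNC it was not the highest. Counting also peaks that began up to 50 nt before the stop codon, with their midpoint in the 3'UTR, the count was 3 of 8 for the 4 genes and 6 of 36 for the others (16.7%, 95% Wilson interval 7.87 to 31.9%). With a limit of 100 nt after the codon the count was again 3 of 8 for the 4 genes. For the whole list of 44 such peaks, which includes those 8, it was 10 in place of 6. All peaks added by the wider limit thus lay outside the 4 genes, and the contrast with the other peaks was smaller. The FOSL1 and ZFP36L1 peaks at this place held more C than G, while the MAFK peak held equal shares of both.

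**Figure D3:**
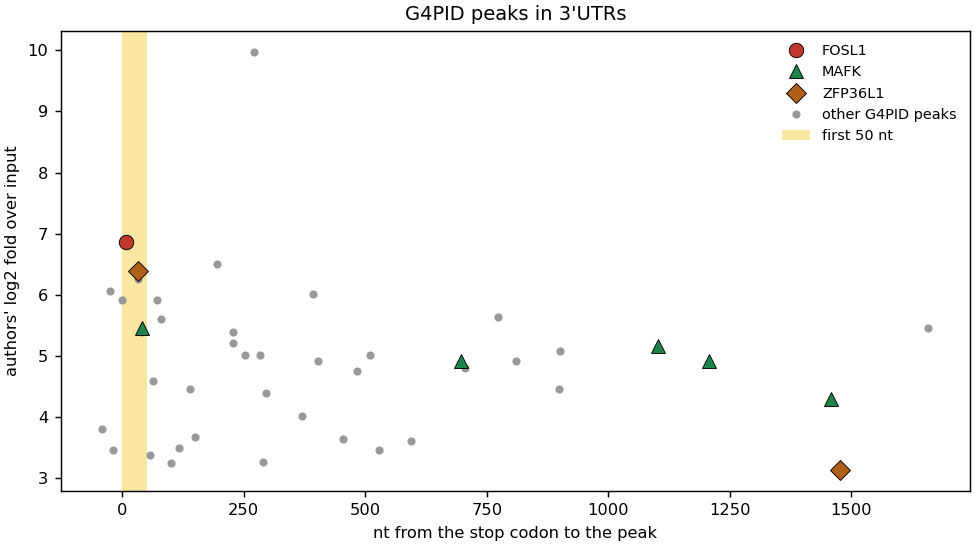
G4PID peaks whose midpoint lies in the 3'UTR of the principal transcript, by the distance in nt from the stop codon to the start of the peak (x axis, negative where the peak begins before the codon's end) and the authors' log2 fold over input (y axis). Coloured symbols are the peaks of FOSL1, MAFK and ZFP36L1, grey points the others and the yellow band the first 50 nt. The FOSL1, ZFP36L1 and MAFK peaks in the band have log2 folds of 6.86, 6.39 and 5.46.

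The sequence of 13 of the 14 peaks could be rebuilt. The intronic FOSL1 peak was not covered by the exons of any annotated transcript. In MAFK the share of G under the 6 peaks, in transcript order, was 56, 32.1, 50, 44.4, 42.4 and 51.3%, and the share of C was 16, 32.1, 25, 20.6, 28.8 and 28.2%. The FOSL2 peak held 45.6% G and 30.9% C. In these 2 genes G exceeded C in 6 of 7 peaks and equalled it in the MAFK peak next to the stop codon, whose G-rich stretch lay partly upstream of it.

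In FOSL1 the coding peak held 11.4% G and 48.6% C, and the 3'UTR peak 14.6% G and 45.6% C. In ZFP36L1 the 5'UTR peak held 22.9% G and 51.4% C, the coding peak 25% G and 43.8% C, and the 3'UTR peak with the highest fold 8.33% G and 48.1% C. The distal ZFP36L1 peak differed from them, with 18% each of G and C and 64% A and U. Over all 189 G4PID peaks that could be read, 49.7% had more G than C and 48.1% more C than G, so both kinds were common in the list. Among the 135 other readable peaks in protein-coding genes, 41.5% had more G than C and 58.5% more C than G. A gap of at least 20 percentage points between G and C was found in 8 of the 13 peaks of the 4 genes, against 52 of 176 of the others (29.5%). In other protein-coding genes it was found in 47 of 135 (34.8%). Of the 28 genes with 2 or more readable peaks, 19 had peaks of both kinds. MAFK was 1 of 3 with no C-rich peak, and FOSL1 and ZFP36L1 were 2 of 6 with no G-rich one. With 50 nt of flank on each side, 8 of the 13 had more G than C and 5 more C than G. MAFK and FOSL2 have fewer readable peaks than those 8, so the split by gene was not complete with flanks.

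**Figure D4:**
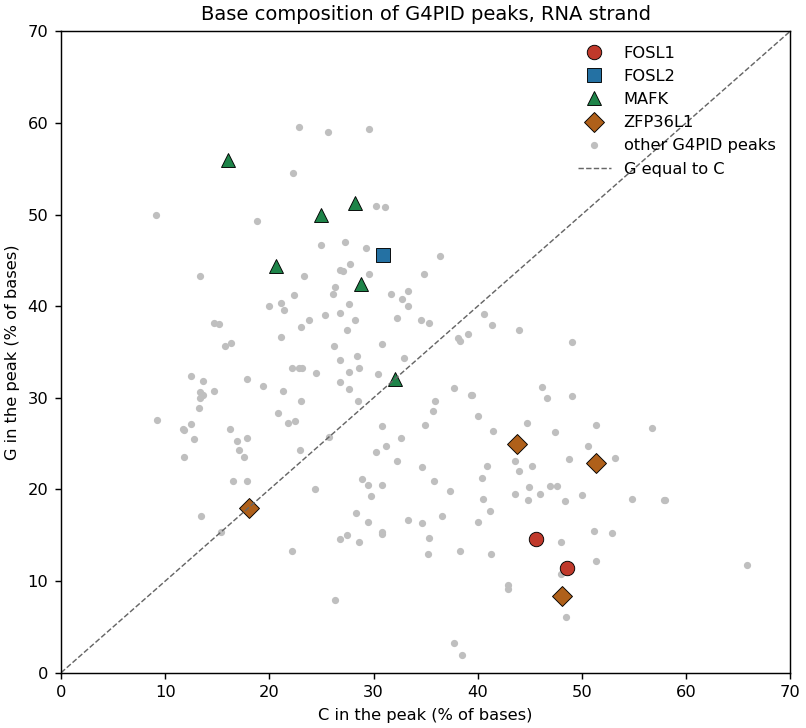
Share of C (x axis, % of bases) and of G (y axis, % of bases) on the RNA strand of each G4PID peak as deposited, with the 13 readable peaks of the 4 genes as coloured symbols and the other 176 in grey. MAFK and FOSL2 peaks lie on or above the dashed line of equal shares, and FOSL1 and ZFP36L1 peaks on or below it.

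The quadruplex motif stood in sense at 3 of the 13 windows of peak and 50 nt flanks (23.1%, 95% Wilson interval 8.18 to 50.3%). Among windows of the other G4PID peaks it stood in 6 of 148 (4.05%, 95% Wilson interval 1.87 to 8.56%). These intervals hold counting error only, and they overlap. Taken as the shortest match in its window, each of the 3 crossed the upstream edge of a peak. The FOSL2 motif had 16 of its 21 nt inside, the MAFK intronic one 5 of 21, and the MAFK 3'UTR one 12 of 22. In the MAFK 3'UTR window a longer match also lay wholly upstream of the peak. Longer matches were not searched for in the other windows. Within the peaks as deposited, 0 of 13 held the whole motif, against 1 of 189 in the whole list, and with runs of 2 G in place of 3 it stood in 9 of 13 windows, against 76 of 161. With loops of up to 12 nt it stood in 3 of 13, against 16 of 161 in the whole list (9.94%). With 100 nt flanks it stood in 3 of 12, against 14 of 143 (9.79%). These motifs had been seen in an earlier reading of the same data, so they are no independent support for a choice of these genes. On the opposite strand 1 of 13 windows held the motif, in the ZFP36L1 peak next to the stop codon and wholly inside it, against 16 of 148 of the others (10.8%).

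The G4Hunter score, which adds for runs of G and subtracts for runs of C over 25 nt, separated the genes only in part. Its highest sense value was 2.52 in MAFK, in a window between the stop codon and the first 3'UTR peak, and the FOSL2 peak reached 1.88. The other MAFK windows lay between 1.08 and 1.72. The FOSL1 3'UTR window had no stretch above 0.00 in sense, and the FOSL1 coding window reached 0.28. On the opposite strand the highest values were 2.24 for the ZFP36L1 peak next to the stop codon, 1.84 for the FOSL1 3'UTR peak and 1.76 for the FOSL1 coding peak. The C-rich ZFP36L1 5'UTR peak was the exception, with 1.36 in sense, reached in the flank outside the peak, more than it reached in antisense. A score of at least 1.5 was reached in sense by 4 of 13 windows (30.8%), in FOSL2 and MAFK, against 34 of 148 others (23%). In antisense it was reached by 5 of 13 (38.5%), in FOSL1, ZFP36L1 and MAFK, against 44 of 148 (29.7%). Among the other windows in protein-coding genes alone the counts were 25 of 112 in sense (22.3%) and 43 of 112 in antisense (38.4%). The antisense share of the 4 genes was thus that of like genes. At a threshold of 1.2 the sense count was 8 of 13 (61.5%), against 56 of 161 in the whole list (34.8%), and the antisense count 6 of 13, against 63 of 161 (39.1%). Without flanks 1 of the 13 reached 1.5 in sense and 3 in antisense.

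AU-rich elements, the sites bound by ZFP36L1 and its relatives, were looked for in the same windows. The pentamer ATTTA stood in sense in 1 of the 8 3'UTR windows of the 4 genes, against 5 of 34 of the other 3'UTR windows of the list (14.7%). That window belonged to the distal ZFP36L1 peak and held the longer form TTATTTATT, 30 nt upstream of the peak. It was the only such nonamer among the 161 readable G4PID windows. The stretch is shown because it lies in the mRNA of the decay factor itself, with the nonamer in capitals.
ZFP36L1 3'UTR, chr14:68788079-68788103, minus strand: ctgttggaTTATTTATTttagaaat
A match here says nothing of whether the protein binds.

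SF3B4 peaks were listed in none of the 4 genes, which have 3, 3, 2 and 1 introns in the principal transcripts of FOSL1, FOSL2, MAFK and ZFP36L1. Over 19940 protein-coding genes, 8.87% had an SF3B4 peak (1.52% with a log2 fold of at least 5), so 0 of 4 lies near the background. A gene without a listed peak is not shown to be unbound. The lists give enrichment over input and not the level of an RNA, so how much of each transcript the cells held was not analysed here.

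Of the relatives of the 4 genes, 0 outside the 4 had a G4PID peak in the 5 lists that follow, which lies near the background of 0.496%. Among 14 AP-1 and related genes, FOSL1 and FOSL2 were the only ones with a G4PID peak, and FOS, JUN, JUNB, JUND and ATF3 were listed in neither set. Among 13 genes of MAF factors and their CNC partners, MAFK alone had one. Of 25 other basic leucine zipper genes 0 had a G4PID peak and 3 had an SF3B4 peak (12%, beside 8.87% of all protein-coding genes). The highest log2 folds of these 3 were 5.20 in ATF6B, 4.30 in CREBZF and 3.30 in ATF4. ZFP36L1 was the only 1 of 14 genes of the tristetraprolin family and the CCR4-NOT complex with a G4PID peak. In that list 3 genes had an SF3B4 peak (21.4%, beside 8.87% of all protein-coding genes), CNOT9 at 5.27, CNOT1 at 4.58 and CNOT3 at 3.17. Of 19 other mRNA decay genes 0 had a G4PID peak and 9 had an SF3B4 peak (47.4%, beside 8.87% of all protein-coding genes), with PAN2 at 5.90, KHSRP at 5.88 and UPF1 at 4.84 among them.

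Other immediate early genes and targets of these factors did appear in the G4PID list. Besides FOSL1, MAFK and ZFP36L1, 4 of 44 immediate early genes had a G4PID peak (9.09%, beside 0.496% of all protein-coding genes). They were CYR61, which encodes a matricellular protein, with a highest log2 fold of 6.17, its relative CTGF at 5.12, MCL1, which encodes a survival factor of the BCL2 family, at 4.97 and EGR1, which encodes a zinc finger transcription factor, at 4.86. All of their peaks lay in coding sequence, unlike most of those of the 4 genes. SF3B4 peaks were listed in 0 of the 47 immediate early genes, beside 8.87% of all protein-coding genes. FOSL2, though grouped here with the early-response regulators, was not among those 47. Of 24 genes known as targets of AP-1 or of CNC-MAF dimers, 4 had a G4PID peak (16.7%, beside 0.496% of all protein-coding genes). An SF3B4 peak was listed in 4 of the 24 (16.7%, beside 8.87%). MMP3, which encodes a matrix metalloproteinase, had 5 G4PID peaks with a highest log2 fold of 7.71. SQSTM1, which encodes an autophagy receptor, reached 5.46, CD44, which encodes a hyaluronan receptor, 5.12, and PLAUR, which encodes the urokinase receptor, 3.46. These lists were drawn up with earlier results known and were not tested.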

How the data were processed

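RNA bound by G4PID and by SF3B4 in HEK293T cells was measured by eCLIP (2 libraries each, 2 inputs). The submitters' processing notes list the tools cutadapt 3.4 and STAR 2.7.0d beside 2 genome builds, hg19 and hg38. Peak caller and filters were not given in the sources used here. Each antibody has 1 list of peaks, in which the authors deposited a value per peak read as the −log10 p of its enrichment. The same deposited lists hold the authors' log2 fold over input. Neither column has a header, and both meanings were taken from position and range.

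Peaks were assigned by midpoint and strand to GENCODE release 29 genes, protein-coding and exon first. Classes came from the basic transcript set, coding before UTR before intron. Distances used the APPRIS principal transcript. Bases were read from annotated transcripts, since no genome was used. Motif search and classes were tested on simulated data. Nothing says that replicates came from separate cultures. All 4 genes were named with every peak, listed genes by count and highest fold (up to 4 examples), and others where a result turned on them or they ranked beside a member. The members and lists were chosen with earlier results of these data known. Computations used Python 3.11.15, numpy 2.4.6, scipy 1.17.1 and matplotlib 3.10.9.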

Additional observations from a re-analysis of the deposited data

How the results depend on the processing

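Of 75 recomputed values, 49 stayed the same or, for counts and ranks, within 1.5 times, and 26 moved. With a log2 fold of at least 5 the 14 peaks became 6 and FOSL2 had none left; with a −log10 p of at least 10 they also became 6. Taken as the median over a gene's peaks, the log2 fold was 5.61 for FOSL1, 4.92 for MAFK and 3.94 for ZFP36L1. The sense motif was found in 0 of 13 peaks without flanks and in 9 with runs of 2 G, in place of 3. With a log2 fold of at least 5, 4 listed genes in place of 19 had an SF3B4 peak. With intron counted before exon, 4 of the 14 peaks were intronic in place of 2, and with all annotated transcripts 1. Under the alternatives run for them, the peaks in 3'UTRs numbered 7 or 8 and the SF3B4 peaks in the 4 genes 0. The sense G4Hunter count was 8 in place of 4 at a threshold of 1.2 and 1 without flanks, and in antisense 3 without flanks in place of 5. The G4Hunter count without flanks, both other stop codon limits and the flanked base counts were added after the data were seen. No paired analysis was possible because the lists hold no value per library, and leaving out a library was not possible for the same reason.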
